A study of Danio rerio with 2 samples.

Results

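Most of the genes described here encode core proteins of the spliceosome or factors that guide it to splice sites. Some Lsm genes among them, such as lsm1, lsm11 and the lsm14 genes, have other roles, given below. All are called splicing genes for short and are counted as members. The members are the rows of the deposited table whose gene symbol starts with snrp, sf3a, sf3b, prpf, srsf or u2af, or with lsm and a digit. This rule matched 65 of 23809 genes, of which 64 had at least 50 reads over both libraries and were compared. The exception was lsm14b, with 2 reads in the control and 4 with cyproconazole. The older names smx5 and prp19 in the table stand for lsm2 and prpf19, which the rule therefore did not match, and their values are given beside the members.

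The spliceosome removes introns from newly made transcripts. It is built from small nuclear ribonucleoproteins (snRNPs), each an RNA with a ring of Sm or Lsm proteins and particle-specific proteins. The U1 snRNP recognizes the start of an intron, U2AF and the U2 snRNP recognize its end and branch point, and the U4/U6.U5 tri-snRNP then joins to form the catalytic core. SR proteins, encoded by srsf genes, bind exons and recruit these particles. Every nucleated cell splices, so genes of the core machinery are expected to be active throughout the embryo, which was not measured here. Mutations in several splicing genes cause eye or blood disease in people.

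RNA was taken from whole zebrafish embryos at 3 days post fertilization, and the study asked how transcript levels differ after exposure to cyproconazole, a triazole fungicide. The control library came from untreated embryos and the other from embryos kept in 20 µM cyproconazole from 4 hours post fertilization onwards, with 1 poly-A-selected library per group. All embryos had the genotype SAGFF(LF)53A mitfab692/+, so controls and exposed embryos alike carried the SAGFF(LF)53A insertion and had a mutant mitfa allele on 1 chromosome copy; mitfa directs pigment cell development. Each library pooled 40 embryos, so variation among embryos is not visible. With 1 library per group there is no replicate check and no test: every ratio compares these 2 libraries. Of the 20 symbols fixed as markers of muscle, neurons, blood, lens, liver, skin, cartilage, eye, heart and vessels, 18 were found and 17 passed the read minimum, with FPKM values of at least 9.16 in either library. No marker of the heart was among those 17. FPKM counts fragments relative to transcript length and sequencing depth, which allows levels of different genes to be set side by side. Reads in genes summed to 18067935 in the control and 20726375 with cyproconazole. The value in parentheses after a read ratio is its exact 95% binomial interval, which covers counting error only. The highest and lowest gene of a group are named by read ratio, and the most abundant by FPKM in the control.

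Splicing genes were slightly higher in the cyproconazole library. FPKM was above the control in 54 of the 64 members, compared with 54.4% of the 18621 genes compared across the table. Their median difference in log2(FPKM + 1) was 0.13, against 0.02 over all genes compared, and their median read ratio was 1.08, against 1.01. The differences were small. Counts of genes with a higher FPKM in each group below have the same 54.4% as background. For sums, the background is the ratio over all genes compared, 1.04 for summed FPKM and 0.999 for summed reads. On the FPKM + 1 scale 14 members exceeded the control by 1.2-fold or more (11.8% of all genes) and 1 lay below it by as much (9.44% of all genes), while 0 exceeded it by 1.5-fold or more (1.58% of all genes) and 0 lay below it by as much (1.71%). By reads, the ratio was above 1 in 53 members (51.7% of all genes). It was 1.2-fold or more above 1 in 12 members (13.5% of all genes) and below 1 by as much in 1 (12.9%), and the counts past 1.5-fold were 1 above (2.86%) and 0 below (3.13%). The share of members past 1.2-fold higher by reads was 18.8%, so by that measure it lay near the background. Shares past a fold also depend on depth, because ratios of genes with few reads scatter more. The counting interval lay above 1 for 25 members (15.8% of all genes) and below 1 for 2 (14.5%), a count that depends on depth, and these members are deep, with a median control FPKM of 36.0 against 6.58 over all genes compared. In RNA from whole embryos, a change in the number of cells of a type and a change in RNA per cell cannot be told apart. The tissue markers differed between the libraries as well. Of their 19 rows compared, 6 were at least 1.2-fold higher on the FPKM + 1 scale (11.8% of all genes) and 4 at least 1.2-fold lower (9.44%). The summed level of these rows was 25345 FPKM in the control and 27041 with cyproconazole. By reads the sum was lower with cyproconazole, at a ratio of 0.985 (0.982 to 0.988). The cartilage collagen gene col2a1a had 664 and 366 FPKM (read ratio 0.543, 0.537 to 0.548), the ultraviolet cone opsin gene opn1sw1 had 271 and 155 FPKM (0.567, 0.550 to 0.585) and the liver gene fabp10a had 60.3 and 41.7 FPKM (0.702, 0.575 to 0.856). The glial gene gfap had 130 and 179 FPKM (1.37, 1.33 to 1.41), and the 3 rows of an embryonic beta globin had read ratios of 1.29, 1.33 and 1.39. Other eye genes were not lower by reads, unlike opn1sw1. The rod opsin gene rho had 71.7 and 84.6 FPKM (1.17, 1.11 to 1.24) and the lens gene cryaa had 30.5 and 41.4 FPKM (1.34, 1.23 to 1.46). The more abundant lens gene crygm2d10 had 1047.3 and 1039.5 FPKM (1.02, 0.983 to 1.06), an interval that includes 1. The markers named here were picked after their values were seen. The part of these tissue differences in the result for splicing genes was not tested.

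**Figure D1:**
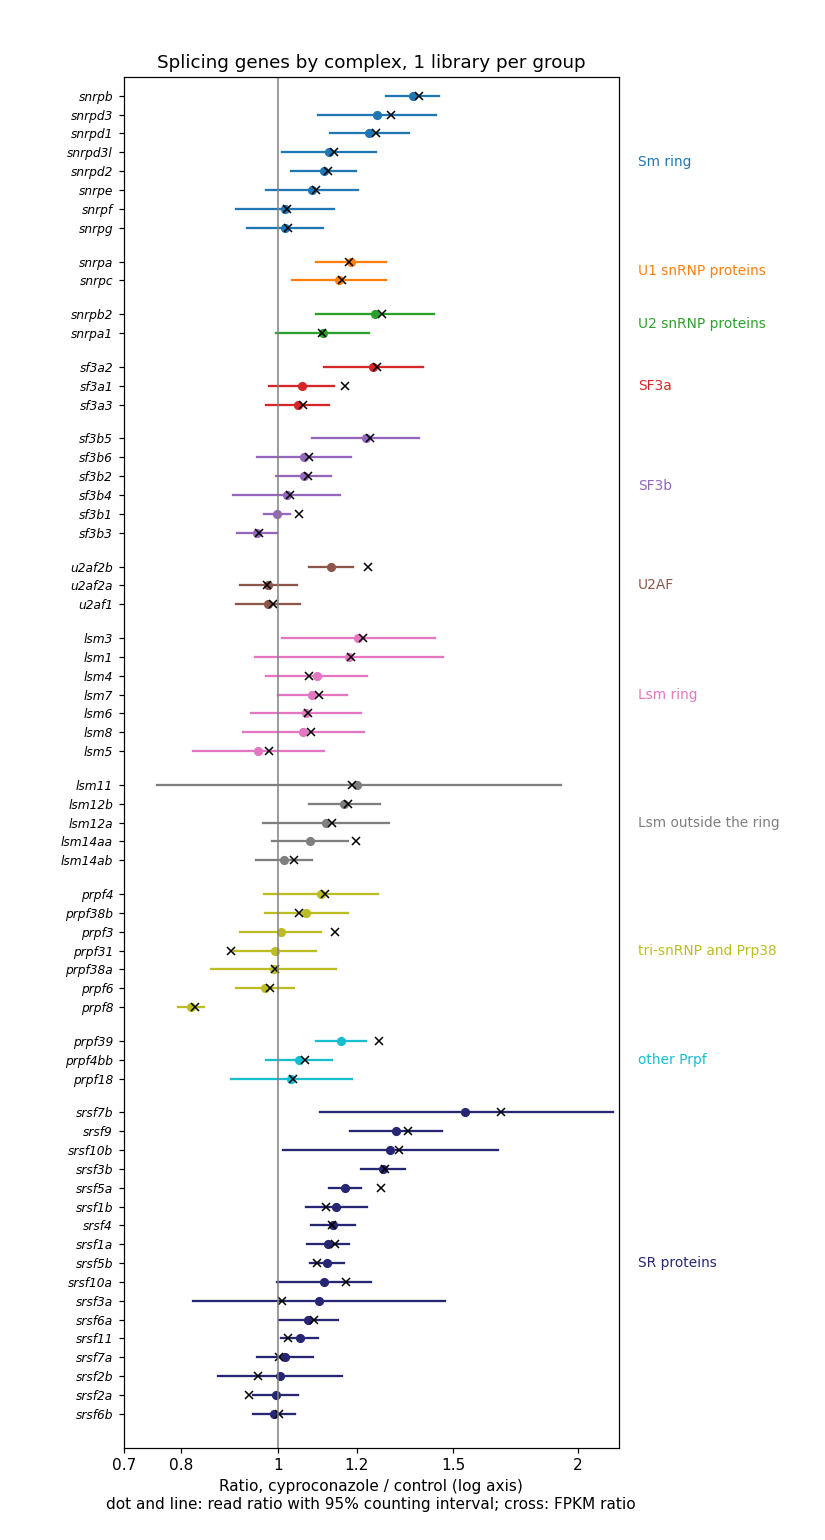
Ratio of the cyproconazole library to the control for 63 of the 64 members compared, grouped by complex, on a log axis. Dots and lines are read ratios with their 95% counting intervals and crosses are FPKM ratios. Most dots lie to the right of 1, snrpb stands at 1.37 in the Sm ring, and prpf8 stands furthest to the left at 0.818.

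The Sm ring is the protein ring around the RNAs of the U1, U2, U4 and U5 snRNPs. All 8 of its genes had a higher FPKM in the cyproconazole library, with a median log2(FPKM + 1) difference of 0.17, and their summed FPKM was 589 in the control and 683 with cyproconazole. The highest ratio belonged to snrpb (ENSDARG00000011125), which encodes Sm B. Its level was 96.5 FPKM in the control and 134 with cyproconazole, from 1711 and 2689 reads, a read ratio of 1.37 (1.29 to 1.45). The most abundant member of the ring in the control, snrpg, had 104 and 107 FPKM from 944 and 1103 reads, a read ratio of 1.02 (0.930 to 1.11). By read ratio snrpg was also the lowest of the ring. The intervals of snrpb and snrpg do not overlap, but these genes are the ends of the ring's ranking. Intervals of single genes do not allow for such a choice.

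Sm proteins join the RNA as preformed parts: B with D3, D1 with D2, and E with F and G. A split of the ring genes along these parts was chosen after the values were seen. Sm D3 is encoded by snrpd3, which had 33.0 and 42.9 FPKM, with a read ratio of 1.26 (1.1 to 1.44), and by the related copy snrpd3l, which had 57.3 and 65.2 FPKM, with a read ratio of 1.12 (1.01 to 1.25). The summed reads of the B and D3 genes had a ratio of 1.30 (1.23 to 1.36). For D1, snrpd1 had 65.5 and 82.3 FPKM, a read ratio of 1.24 (1.13 to 1.35), and for D2, snrpd2 had 98.1 and 110 FPKM, a read ratio of 1.11 (1.03 to 1.2). Their summed reads had a ratio of 1.16 (1.1 to 1.23). For the E, F and G part, snrpe had 76.2 and 83.2 FPKM, with a read ratio of 1.08 (0.973 to 1.2), and snrpf, the least abundant gene of that part, had 57.5 and 58.7 FPKM, with a read ratio of 1.02 (0.907 to 1.14). The summed reads of E, F and G had a ratio of 1.04 (0.977 to 1.1), an interval that includes 1.

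Of the particle-specific genes of U1 and U2, leaving aside the U2 subcomplexes SF3a and SF3b, 4 were matched. All 4 had a higher FPKM in the cyproconazole library. For U1, snrpa, whose product binds the U1 RNA, had 38.5 and 45.4 FPKM, with a read ratio of 1.18 (1.09 to 1.28), and snrpc, whose product helps U1 hold the start of the intron, had 34.7 and 40.3 FPKM, with a read ratio of 1.15 (1.03 to 1.28). For U2, snrpb2 had 18.4 and 23.4 FPKM, with a read ratio of 1.25 (1.09 to 1.43), and its partner snrpa1 had 31.5 and 35.0 FPKM, with a read ratio of 1.11 (0.997 to 1.23). The interval of snrpa1 alone among these 4 includes 1. The third U1-specific gene, snrnp70, which the rule does not match, had 64.4 and 65.8 FPKM, with a read ratio of 1.04 (0.991 to 1.1).

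SF3a and SF3b are the U2 subcomplexes that clamp the branch point. In SF3a, sf3a2 had 26.0 and 32.6 FPKM, with a read ratio of 1.25 (1.11 to 1.40), sf3a1 had 27.5 and 32.1 FPKM but a read ratio of 1.06 (0.981 to 1.14), and sf3a3, the most abundant of the 3 in the control and the least abundant with cyproconazole, had 28.7 and 30.4 FPKM, with a read ratio of 1.05 (0.974 to 1.13). In SF3b the small subunit gene sf3b5 was highest, with 52.7 and 65.1 FPKM, with a read ratio of 1.23 (1.08 to 1.39). The scaffold gene sf3b1, which encodes the protein that holds the branch point and is often mutated in human blood disease, had 98.9 and 104 FPKM from 8072 and 9257 reads, a read ratio of 0.997 (0.967 to 1.03). The lowest was sf3b3, another large scaffold subunit, with 34.3 and 32.8 FPKM, with a read ratio of 0.953 (0.909 to 0.999). The other SF3b genes that the rule matched, sf3b2, sf3b4 and sf3b6, had read ratios from 1.02 to 1.06 with intervals that include 1. Summed over the 6 matched SF3b genes, which need not be the whole complex, the FPKM ratio was 1.08, against 1.04 over all genes compared. The ratio of summed reads, in which the long genes sf3b1 and sf3b3 weigh more, was 1.0 (0.983 to 1.03), against 0.999 over all genes compared. The source of the gap between the measures was not tested.

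U2AF marks the end of the intron before U2 binds. Its small subunit gene u2af1 had 73.0 and 72.1 FPKM, with a read ratio of 0.977 (0.908 to 1.05). The large subunit is encoded by a duplicated pair. Of these, u2af2a had 28.6 and 27.9 FPKM, with a read ratio of 0.978 (0.916 to 1.04), and u2af2b (ENSDARG00000011740) had 59.9 and 73.8 FPKM, with a read ratio of 1.13 (1.07 to 1.19). Only u2af2b of the 3 had an interval off 1.

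Lsm proteins form a ring with lsm2 to lsm8 on U6 RNA in the nucleus, and a ring in which Lsm1 takes the place of Lsm8 starts mRNA decay in the cytoplasm. Of the 7 ring genes compared, 6 had a higher FPKM in the cyproconazole library, with a median log2(FPKM + 1) difference of 0.11. The highest was lsm3, with 26.1 and 31.8 FPKM, with a read ratio of 1.2 (1.01 to 1.44), and the lowest was lsm5, with 42.8 and 41.9 FPKM, with a read ratio of 0.956 (0.821 to 1.11). The gene that defines the cytoplasmic ring, lsm1, had 8.95 and 10.6 FPKM (read ratio 1.18, 0.949 to 1.47), below the nuclear lsm8 at 37.3 and 40.3 FPKM (1.06, 0.921 to 1.22). The most abundant was lsm7, with 69.8 and 76.8 FPKM, with a read ratio of 1.08 (0.999 to 1.17), and lsm4 and lsm6 had read ratios of 1.09 and 1.07 with intervals that include 1. Under its older name smx5, lsm2 had 23.1 and 26.8 FPKM, with a read ratio of 1.11 (0.956 to 1.29).

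Lsm proteins outside these rings had 5 genes compared, all with a higher FPKM in the cyproconazole library. The U7 snRNP gene lsm11, which serves histone mRNA processing, was the least abundant of all members compared, with 1.60 and 1.90 FPKM from 34 and 47 reads, and its read ratio of 1.2 (0.757 to 1.93) was not distinguishable from 1 at this depth. The most abundant, lsm12b, had 44.2 and 51.9 FPKM, with a read ratio of 1.17 (1.07 to 1.27), and its copy lsm12a had 8.35 and 9.46 FPKM, with a read ratio of 1.12 (0.966 to 1.29). The lsm14 genes encode RNA-granule proteins, and of these lsm14aa had 20.6 and 24.7 FPKM but a read ratio of 1.08 (0.986 to 1.17), and lsm14ab had 23.0 and 23.9 FPKM, with a read ratio of 1.01 (0.950 to 1.08).

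The genes of tri-snRNP and Prp38 proteins had ratios centred near 1. Of the 7 genes, 3 had a higher FPKM in the cyproconazole library and 4 a lower one, and the median log2(FPKM + 1) difference was -0.01. The lowest of all members was prpf8 (ENSDARG00000026180), which encodes the large scaffold at the heart of the U5 snRNP and of the catalytic core. Its level was 54.9 FPKM in the control and 45.4 with cyproconazole, from 9388 and 8831 reads, a read ratio of 0.818 (0.794 to 0.842). It was the single member past 1.2-fold in the lower direction, and apart from sf3b3 no other member had an interval below 1. On the log2(FPKM + 1) scale its difference of -0.27 lies close to the 1.2-fold threshold. The summed FPKM of the 7 genes was 169 in the control and 162 with cyproconazole, a ratio of 0.957, and without prpf8 the ratio was 1.02. Both ratios lay below the 1.04 of summed FPKM over all genes compared.

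The other tri-snRNP members had intervals that include 1. The U5 bridge gene prpf6 had 22.9 and 22.5 FPKM, with a read ratio of 0.970 (0.907 to 1.04). The U4/U6 genes were spread around 1 as well: prpf4, the highest of the 7 by read ratio, had 10.8 and 12.1 FPKM, with a read ratio of 1.1 (0.967 to 1.26), prpf3, the highest by FPKM ratio at 1.14, had 20.1 and 23.0 FPKM but a read ratio of 1.01 (0.916 to 1.1), and prpf31 had 23.8 and 21.4 FPKM but a read ratio of 0.994 (0.904 to 1.09). Mutations in prpf3, prpf6, prpf8 and prpf31 cause retinitis pigmentosa in people. The Prp38 gene prpf38a had 14.0 and 14.0 FPKM and 0.991 (0.857 to 1.14) by reads, and prpf38b had 22.5 and 23.6 FPKM and 1.07 (0.970 to 1.18) by reads.

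Partners of Prpf8 in the U5 snRNP, which the rule does not match, were set beside it. The helicase gene snrnp200 was also lower, with 42.8 and 34.4 FPKM, with a read ratio of 0.899 (0.862 to 0.937). The GTPase gene eftud2 had 28.7 and 27.5 FPKM, with a read ratio of 0.955 (0.900 to 1.01), and the small U5 gene txnl4a had 30.5 and 30.6 FPKM, with a read ratio of 0.989 (0.873 to 1.12). The WD-repeat gene snrnp40 was higher, with 10.3 and 12.5 FPKM, with a read ratio of 1.2 (1.03 to 1.39). These partners were picked out after their values were seen. The length implied by reads and FPKM was 9425 bases for prpf8, 6059 for snrnp200 and 4002 for eftud2. It was 1586 bases for snrnp40 and 864 for txnl4a. A further U5 gene, ddx23, had 20.7 and 21.9 FPKM, with a read ratio of 1.05 (0.978 to 1.13) and an implied length of 3763 bases. The part of length in these ratios was not tested.

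Among the other Prpf genes, prpf39, which encodes a U1-associated protein, had 45.9 and 58.0 FPKM, with a read ratio of 1.16 (1.09 to 1.23), the highest and the most abundant of the 4. The gene prpf18, which encodes a factor of the second catalytic step, was the lowest, with 12.8 and 13.3 FPKM, with a read ratio of 1.03 (0.897 to 1.19). The kinase gene prpf4bb stood at 1.05 (0.974 to 1.13) by reads. The ubiquitin ligase gene prp19, the older name of prpf19, had 37.7 and 37.6 FPKM, with a read ratio of 0.981 (0.919 to 1.05).

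**Figure D2:**
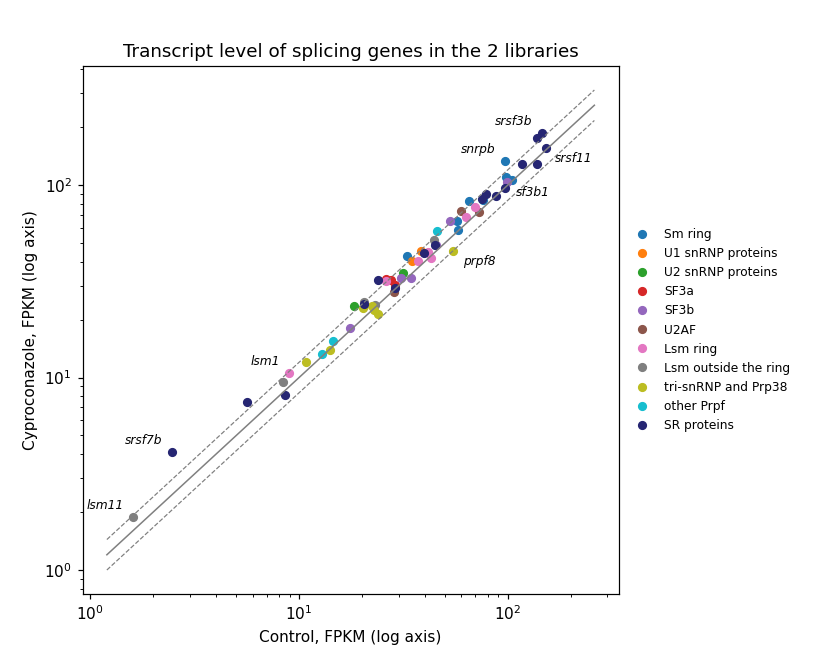
FPKM of 63 of the 64 members compared, in either library, control against cyproconazole, both on log axes, with colours for complexes. The solid line marks equal levels and the dashed lines 1.2-fold differences; levels run from 1.60 FPKM for lsm11 to 152 FPKM for srsf11 in the control, and most points lie between the dashed lines, with 14 above the upper one and prpf8 below the lower one.

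SR proteins held the most abundant member and the member with the highest read ratio. Of 17 genes, 15 had a higher FPKM in the cyproconazole library (54.4% of all genes), with a median log2(FPKM + 1) difference of 0.16. A counting interval above 1 was found for 11 of the 17 (15.8% of all genes). That count depends on depth, and the median control FPKM of SR genes was 74.9, against 6.58 over all genes compared. Their summed FPKM was 1204 in the control and 1334 with cyproconazole, and the ratio of their summed reads was 1.11 (1.09 to 1.12). The highest read ratio was that of srsf7b, a rare copy with 2.46 and 4.12 FPKM from 57 and 101 reads, at 1.54 (1.1 to 2.17). Next was srsf9 (ENSDARG00000008097), with 23.9 and 32.3 FPKM from 573 and 866 reads, at 1.31 (1.18 to 1.46).

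The abundant srsf3b (ENSDARG00000059360), which encodes the smallest SR protein, had 145 and 186 FPKM from 2534 and 3716 reads, a read ratio of 1.27 (1.21 to 1.34). Its interval is narrow because of its depth, and it lies above the whole interval of the most abundant SR gene in the control, srsf11, with 152 and 156 FPKM, with a read ratio of 1.05 (1.01 to 1.1). The lowest of the family by read ratio was srsf6b, with 88.0 and 88.3 FPKM from 3136 and 3576 reads, a read ratio of 0.991 (0.945 to 1.04). The gene srsf4 had 74.9 and 84.8 FPKM, with a read ratio of 1.14 (1.08 to 1.2). SR genes are known in mammals to regulate themselves through isoforms that are degraded, and values summed over a gene do not tell such isoforms apart.

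Zebrafish carry duplicated copies of many of these genes, and 11 pairs were measured. Comparing the copies of a pair with each other does not depend on how the libraries are scaled. In 9 of the 11 pairs the ratio between the copies did not differ between the libraries beyond counting error, and in 2 it did. For single genes, the counting interval lay above 1 in 15.8% of all genes and below 1 in 14.5%. No such share was computed over all duplicated pairs, so these 2 are not set apart from the background. They were u2af2b over u2af2a, at 1.16 (1.06 to 1.26), and srsf7b over srsf7a, at 1.52 (1.08 to 2.15). The share of the pair's FPKM held by u2af2b was 67.7% in the control and 72.5% with cyproconazole. For srsf7, the abundant srsf7a had 96.5 and 96.7 FPKM, with a read ratio of 1.02 (0.953 to 1.08), and srsf7b held 2.48% and 4.08% of the pair's FPKM.

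The remaining SR pairs had copies with overlapping ratios. For the founding family member, srsf1a had 78.7 and 89.7 FPKM, with a read ratio of 1.12 (1.07 to 1.18), and srsf1b had 39.7 and 44.4 FPKM, with a read ratio of 1.14 (1.07 to 1.23). Both copies were higher, with overlapping intervals. The srsf5 pair was the most abundant in all, with 139 and 176 FPKM for srsf5a (read ratio 1.17, 1.13 to 1.21) and 117 and 129 FPKM for srsf5b (1.12, 1.08 to 1.16). In contrast, srsf2a, the lowest SR gene by FPKM ratio at 0.936, had 138 and 129 FPKM with a read ratio of 0.995 (0.944 to 1.05), and srsf2b had 8.53 and 8.15 FPKM with a read ratio of 1.0 (0.871 to 1.16).

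For srsf6a the levels were 44.8 and 48.7 FPKM, with a read ratio of 1.07 (1.0 to 1.15). The srsf10 copies had 20.6 and 24.1 FPKM for srsf10a (1.11, 0.997 to 1.24) and 5.65 and 7.48 FPKM for srsf10b (1.30, 1.01 to 1.67). For srsf3a, 28.8 and 29.1 FPKM came from only 87 and 110 reads, an implied length of 175 bases against 964 for srsf3b, and its read ratio was 1.1 (0.822 to 1.47). The sources used here do not say how reads that fit both copies were assigned, so the values of a copy are uncertain where copies are near-identical.

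**Figure D3:**
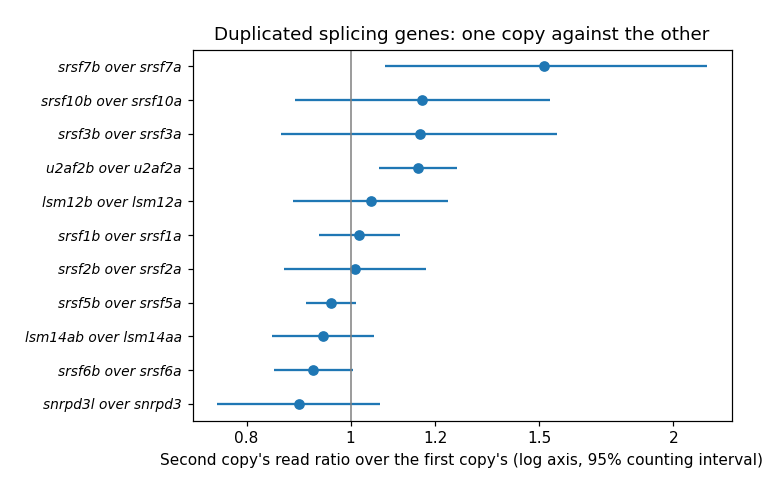
For the 11 duplicated pairs, the read ratio of the second copy divided by that of the first, on a log axis, with exact 95% counting intervals. The intervals of u2af2b over u2af2a (1.06 to 1.26) and srsf7b over srsf7a (1.08 to 2.15) lie above 1, and the other 9 include it.

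Across the whole table, the read ratio fell slightly with implied transcript length. That length is derived from the same reads and FPKM values, not measured, and over all genes compared it was as low as 2.44 bases. The length implied by reads and FPKM was compared with the read ratio, and over the 18621 genes compared Spearman's rho was -0.147, with -0.360 over the 64 members and -0.329 without prpf8. With the log2(FPKM + 1) difference in place of the read ratio, rho was -0.135, -0.218 and -0.180 in the same order. These are descriptions across genes that share the same 2 libraries, not replicates. Genes with an implied length above 500 and up to 1000 bases had a median log2(FPKM + 1) difference of 0.06 over 1603 genes, and those above 5000 bases had -0.03 over 2675 genes. Members of the same classes had 0.18 over 13 genes and -0.17 over 2 genes, the latter being prpf8 and sf3b3. Up to 500 bases, the 7 members had a median of 0.10, close to 0.09 over 497 genes. Between 1000 and 2000 bases the medians were 0.16 for 23 members and 0.05 for 5348 genes, and between 2000 and 5000 bases they were 0.10 for 19 members and 0.02 for 8498 genes. Measured from the median gene of the same implied length (20 classes, a step added once the values were known), the members' median difference was 0.08 in place of 0.13, and prpf8 was no longer 1.2-fold lower. The part of implied length in the members' differences was not tested further.

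**Figure D4:**
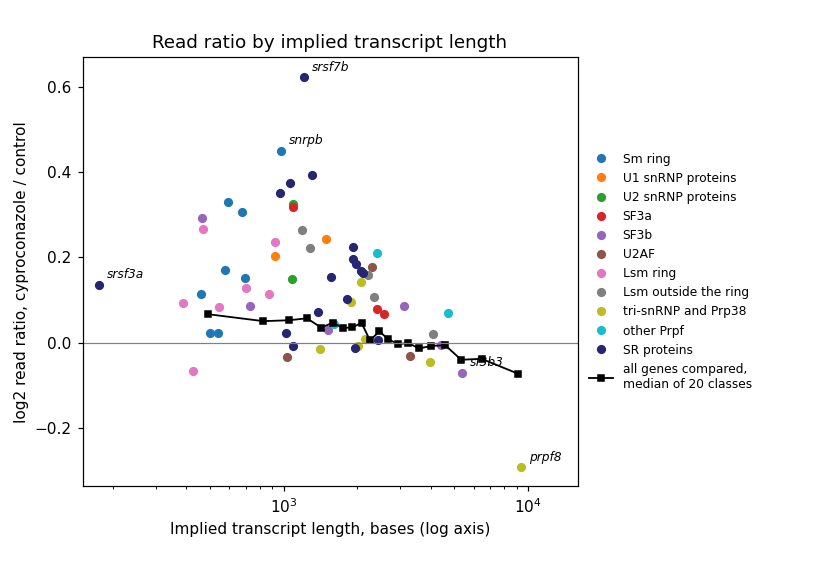
Log2 read ratio of 63 of the 64 members compared against its implied transcript length in bases (log axis), with black squares for the medians of 20 length classes of all genes compared. The black line falls from 0.07 in the shortest class to -0.07 in the longest, most members lie above it, and prpf8 lies below it.

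Other genes of the splicing pathway, from lists of known factors, had list medians from 0.02 to 0.09, below the members' 0.13. The median of all genes compared was 0.02. Other snRNP proteins and snRNP assembly factors, at 0.09 each, lay nearer to the members than to all genes. For counts past 1.2-fold on the FPKM + 1 scale in each list, the background is 11.8% of all genes higher and 9.44% lower. Proteins of the snRNPs that the rule does not match had a median log2(FPKM + 1) difference of 0.09 over 19 genes, with 1 gene past 1.2-fold on the FPKM + 1 scale in each direction. The highest was snrnp35, a protein of the minor spliceosome, with 1.51 and 3.71 FPKM from 28 and 69 reads (read ratio 2.14, 1.36 to 3.45), and the lowest was snrnp200. Factors that assemble snRNPs had a median of 0.09 over 15 genes, with 3 at least 1.2-fold higher and 0 lower. Here gemin7, a subunit of the SMN complex that loads Sm proteins onto RNA, had 7.56 and 11.6 FPKM (1.5, 1.11 to 2.05). The gene of the Sm chaperone pICln, clns1a, named after its value was seen, had 13.4 and 18.3 FPKM (1.37, 1.19 to 1.57), and the lowest, the export adaptor gene phax, had 12.2 and 11.4 FPKM (0.928, 0.814 to 1.06).

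The Prp19-associated and catalytic factors had a median of 0.08 over 27 genes, with 2 at least 1.2-fold higher (11.8% of all genes) and 0 lower (9.44%). They ran from the isomerase gene ppil1 at a read ratio of 1.25 (1.07 to 1.46) down to the helicase gene aqr at 0.900 (0.831 to 0.975). Branch-site and U2-associated factors had a median of 0.04 over 17 genes, with 2 higher and 0 lower past 1.2-fold. The helicase gene ddx46 was highest at 1.30 (1.19 to 1.42), and zrsr2, a U2AF-related factor, was lowest at 0.932 (0.768 to 1.13). The exon junction complex and its partners had a median of 0.08 over 16 genes, with 3 higher and 0 lower. Of these rnps1 was highest at 1.67 (1.30 to 2.15) and thoc1 lowest at 0.944 (0.860 to 1.04).

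SR kinases and Tra2 genes had a median of 0.02 over 12 genes, with 2 higher (11.8% of all genes) and 0 lower (9.44%) past 1.2-fold. The kinases phosphorylate SR proteins. The duplicated kinase genes dyrk1aa and dyrk1ab stood at the ends, at 1.36 (1.22 to 1.51) and 0.843 (0.782 to 0.908) by reads. The hnRNP genes, whose products often oppose SR proteins, had a median of 0.07 over 26 genes, with 5 higher and 0 lower, from hnrnpa0l at 1.21 (1.17 to 1.25) to hnrnpa3 at 0.842 (0.710 to 0.997). Tissue-specific splicing regulators had a median of 0.05 over 28 genes, with 6 higher and 1 lower past 1.2-fold on the FPKM + 1 scale. The lower gene was msi1, which encodes an RNA-binding protein of neural progenitors, with 58.7 and 44.8 FPKM, at 0.917 (0.848 to 0.992) by reads. By that measure mbnl1 was highest at 1.21 (1.03 to 1.42) and the neuronal and muscle regulator rbfox1 lowest at 0.848 (0.802 to 0.896). The median log2 read ratio of these 28 genes was -0.006, against 0.008 over all genes compared. Read ratios were above 1 in 12 of them (51.7% of all genes).

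Genes of other general functions were higher as well. Replication genes had a median log2(FPKM + 1) difference of 0.13 over 14 genes, with 13 higher, 0 past 1.2-fold on the FPKM + 1 scale in either direction. By reads, the rows of rrm2, a subunit of the enzyme that makes DNA building blocks, were past 1.2-fold in opposite directions, at 1.29 (1.15 to 1.45) and 0.766 (0.620 to 0.946). For 71 ribosomal protein genes the median was 0.18, with 69 higher, and a median implied length of 542 bases. Their part in the result for splicing genes was not tested.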

How the data were processed

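Poly-A RNA of 1 pool of whole embryos per group was sequenced. The submitters' processing notes name the build GRCz10 and, with no role for any, Cufflinks 2.1.1, HTSeq 0.6.1, Picard 1.29, SAMtools and TopHat2 2.0.4. The sources used here give neither annotation nor strand setting nor the treatment of shared reads. The authors deposited an FPKM value per library and gene, per the file headers. They also deposited a mean signal of counts divided by size factors, and, from their own comparison, a log2 ratio with its standard error, a score (their quotient) and an unadjusted p-value, which rest on 1 library per group. The score and p-value were not used.

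Members and lists were chosen with earlier results of these data known. Whole reads were recovered from the mean, which is a whole multiple of 1 step within 0.01 in all 23809 genes. Where the mean allowed more than 1 pair of reads, the deposited log2 ratio and standard error were used to single out 1. In 7180 genes it allowed only 1 pair, which was kept without a match to the standard error. The recovery gave reads for 23790 genes (99.9%) and all 65 members. It was checked on data simulated under the same model, so that check cannot show that the deposited values came from this model. For read ratios the libraries were scaled by TMM, which trimmed 30% of log ratios and 5% of mean expression (offset 0.004 on the log2 scale from total reads). Intervals are exact binomial (Clopper-Pearson) at 95%; for duplicated copies they are exact conditional intervals of an odds ratio. Implied length is reads divided by FPKM and depth. Differences are of log2(FPKM + 1), which understates the change of low genes, for genes with at least 50 reads and an FPKM above 0 in both libraries. Described in full are the highest, lowest and most abundant member of each complex, duplicated pairs, members past 1.5-fold on FPKM + 1, members whose read and FPKM ratios differ by over 0.5 on the log2 scale (0 members), and prpf8, sf3b1, u2af1, snrpb and srsf1a. Other genes named are said to be chosen later or complete a complex. Other added values, read minimums, scalings and member sets were tried. Gene positions and sequences were not used here, and 1 member counted in the sums is not reported singly or drawn. Python 3.11.15, NumPy 2.4.6, pandas 2.3.3, SciPy 1.17.1 and Matplotlib 3.10.9 were used.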

Additional observations from a re-analysis of the deposited data

How the results depend on the processing

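No paired analysis was possible because there is only 1 library per group, and leaving out a library was not possible for the same reason. The members' median log2(FPKM + 1) difference of 0.13 ranged from 0.08 to 0.13 over the alternatives run, while the median of all genes moved between 0.00 and 0.03. The count of members at least 1.2-fold higher, 14, ranged from 10 to 14. The 1 member at least 1.2-fold lower, prpf8, became 0 with 5 added to FPKM, when centred on genes of the same implied length and, by construction, without prpf8. At least 1.5-fold higher went from 0 to 1 with 0.1 added and by recovered reads under each scaling. Summed by reads (trimmed mean of M values, total reads, deposited size factors), in which long genes weigh more, the ratios were 1.08, 1.08 and 1.07 for Lsm proteins outside the ring, 1.08, 1.09 and 1.08 for SF3a, 1.0, 1.01 and 1.0 for SF3b, 1.1, 1.1 and 1.09 for the other Prpf genes and 0.883, 0.885 and 0.881 for the tri-snRNP and Prp38 genes, which were 1.02 by FPKM without prpf8. The SF3a median difference by reads was 0.080, 0.084 and 0.077, in which sf3a1 had a lower ratio by reads than by FPKM. Centring on the median gene gave 1.09 for the summed FPKM of SR proteins, and adding prp19 gave 1.12 for the other Prpf genes. Of the single members, 9 (srsf5a, prpf39, u2af2b, lsm14aa, sf3a1, srsf2a, prpf31, sf3b1 and prpf3) had a read ratio further from their FPKM ratio than their counting error; the cause was not tested. Without prpf8 the summed FPKM ratio of the tri-snRNP and Prp38 genes crossed 1 but stayed below the 1.04 of all genes compared. Their median difference went from -0.01 to 0.03. No other complex changed direction. Of the single members, sf3b1, srsf6b and srsf2b lay on opposite sides of 1 by FPKM and by reads, with read intervals that include 1. Members with few reads, such as lsm11 and srsf3a, are limited by depth. The length classes, the sets with smx5 and prp19 and without prpf8 were chosen after the data were seen.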
